A study of Mus musculus with 16 samples.

Results

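WT1 deletion in GFP-intermediate activated hepatic stellate cells (aHSCs) was examined by the 419 named rows of a deposited table that compares WT1-deleted with control cells, out of 5954 different named rows in the 3 tables of the study. The comparison asks how transcription differs in the activated cells that remain once WT1 is lost. A row is a gene, or in 22 cases several overlapping or adjoining genes quantified together. Every row that bears a gene name was taken, whatever its values, and none was added or removed by level. The table holds rows that the authors had called differentially expressed. It thus shows in which direction listed genes differed and by how much, and says nothing of the genes that are not listed. Its counts of rises and falls differ from those the authors report for GFP-intermediate cells, and the reason is not known. Rose and fell are used below for the direction of listed rows alone.

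RNA had been sequenced from 16 samples of mouse hepatic stellate cells, and 4 of them enter the comparison, 2 in each group. WT1-deleted animals were PDGFRbCre;WT1_fl_GFP;Ai14 and controls were PDGFRbCre;WT1_+_GFP;Ai14, all of them males of strain C57/Bl6 injured for 8 weeks with intraperitoneal carbon tetrachloride (CCl4). Both groups therefore carried the same Cre driver, the same red (RFP) Cre reporter and 1 Wt1 allele replaced by GFP, and controls had a single intact Wt1 allele rather than a full pair. In the deleted group the remaining allele was floxed, that is, flanked by sites at which Cre removes the sequence between them. Cells were isolated by density centrifugation on the day after the last injection and sorted as RFP positive with intermediate GFP, the fraction that the sample labels call GFP low. The Cre driver is constitutive, and its line is described as active in the germline. One of the 2 control samples was pooled from 2 animals.

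The deposited value is 1 FPKM (a fragment count divided by transcript length and by the total mapped) for each group and row, which combines the 2 samples of the group. No value per sample was used here, so no spread between samples can be given, no difference was tested, and the read depth of the 4 libraries is unknown. Changes are given as the log2 ratio of the group FPKM, WT1-deleted over control. Wt1 has no named row, and was thus not listed as different between WT1-deleted and control cells. The deletion itself could therefore not be checked on these values. The stellate cell markers Acta2, Lrat, Pdgfrb, Des and Tagln have no row either, and the cell type label could not be checked against them.

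Hepatic stellate cells are the vitamin A-storing pericytes of the liver sinusoid. On injury they activate into myofibroblasts that secrete collagens, glycoproteins and proteoglycans, and they respond to TGF-beta, PDGF and Wnt ligands. WT1 is a zinc finger transcription factor of the embryonic mesothelium, the sheet of cells that covers the liver and gives rise to part of the stellate cells. It binds GC-rich DNA that is close to the site of the EGR family. Kupffer cells, the resident macrophages of the liver, lie in the same sinusoids, and in CCl4 injury monocytes and neutrophils enter from the blood.

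Among the 419 rows, 156 rose (37.2%) and 263 fell (62.8%), and these shares are the background for every list below. Members and lists were chosen with earlier results of these data known. A direction shared by the rows of a list is thus a description and not a test. The rises and the falls occupied different ranges of level. The median FPKM of the rows that rose was 4.73 in controls and 14.3 after deletion, whereas that of the rows that fell was 26.6 and 8.09. An FPKM of 100 or more in the higher group was reached by 6 of the rows that rose and by 52 of those that fell, and 23 of these 52 were macrophage genes. Summed over rows, FPKM went from 1416 to 4484 for the rises and from 23493 to 7022 for the falls. No listed difference was below 2-fold, the smallest rise being 2.15-fold, for the aggrecanase Adamts5, and the smallest fall 2.09-fold, for Dock8. Among rows above 0 in both groups, 40 of 146 rises and 62 of 233 falls were of at least 4-fold.

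**Figure D1:**
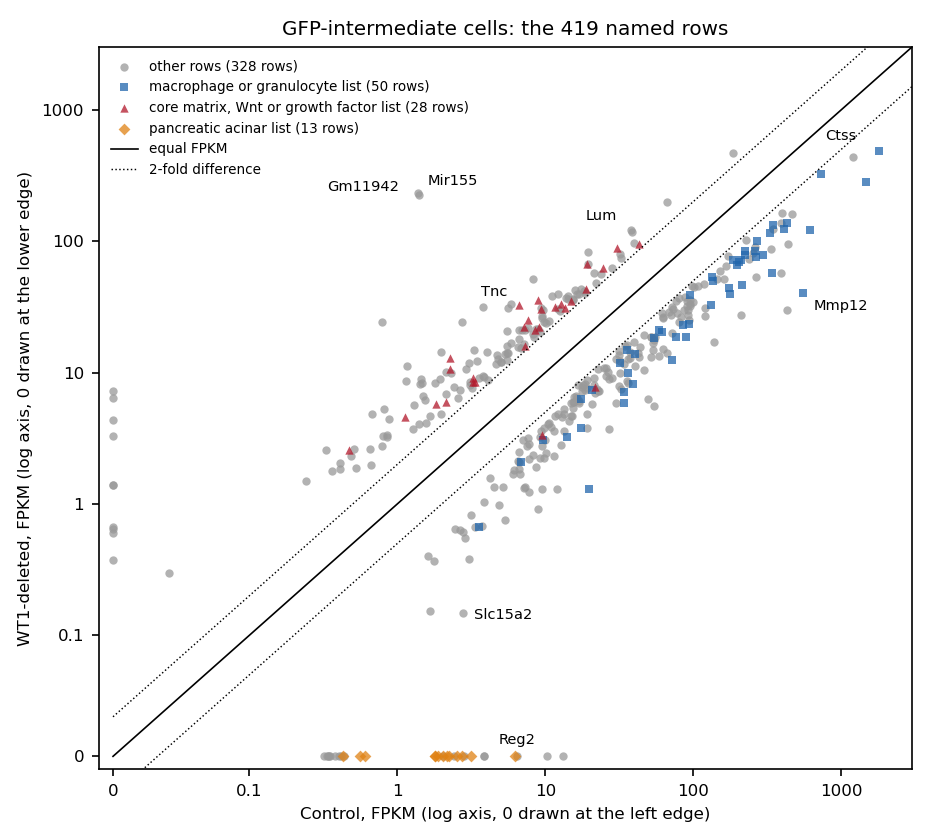
Group FPKM of the 419 rows in control (horizontal log axis) and WT1-deleted GFP-intermediate cells (vertical log axis), 1 point per row, with values of 0 drawn at the edges. Points above the solid line of equal FPKM are the 156 rises and points below it the 263 falls, no point lies between the dotted 2-fold lines, and the macrophage and granulocyte rows (squares) fill the lower right, with FPKM up to 1799 in control.

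The largest rise among the named rows belonged to a microRNA, Mir155. It is an inflammation-associated regulator of gene expression that is abundant in activated lymphocytes and macrophages. Its FPKM was 1.37 in controls and 232 after deletion, a log2 ratio of 7.40. It was the 6th most abundant named row of the deleted group. Its 2 mature products are shown because the row stands for a single hairpin of 65 bases on chromosome 16, and a sequence this short makes an FPKM sensitive to few fragments. Coordinates and sequences are those of RefSeq for GRCm38.p6, on the plus strand, and capitals mark the seed, the bases 2 to 8 with which a microRNA pairs to its targets.
mmu-miR-155-5p (chr16:84714143-84714165): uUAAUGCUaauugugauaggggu
mmu-miR-155-3p (chr16:84714182-84714202): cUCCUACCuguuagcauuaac
The table does not divide the row between the 2 arms, and neither can be given a value. Whether the fragments come from a mature product or from a longer transcript of the locus cannot be told. Among the genes named, 5 microRNAs matched the RefSeq set, and the other 4 share a row with a longer gene (Mir147 with AA467197, Mir568 with Zbtb20, Mir3057 with Apba3, Mir5129 with Zeb2), so that their values cannot be assigned to the microRNA.

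The other rows among the 10 largest rises were of several kinds. Gm11942, a processed pseudogene of 345 exonic bases on chromosome 4, rose from 1.41 to 223. A row of Gria4, a subunit of AMPA glutamate receptors, named together with CT030685.1, rose from 0.793 to 24.1. Among the protein-coding genes named alone in these 10 rows, the largest rise was that of D0H4S114 (current symbol Nrep, a small neuronal regeneration-related protein), from 3.80 to 31.8 with a log2 ratio of 3.06. Slitrk4, a neuronal membrane protein, rose from 0.328 to 2.56, and the tight junction protein Cldn4 from 1.14 to 8.62. Car3, a carbonic anhydrase of muscle, fat and liver, rose from 1.97 to 14.2, and Ankrd1, a nuclear ankyrin repeat protein induced by stretch, from 0.680 to 4.79. The row of Zbtb20 and Mir568 rose from 2.75 to 24.2 and the pseudogene Gm13456 from 1.17 to 11.3. Of these 10 rows, 8 had an FPKM below 2 in control.

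Core matrix proteins were listed in 12 rows, and all 12 rose. Their log2 ratios lay between 1.13 and 2.45 with a median of 1.44, beside a median of 1.54 over all rises, and their summed FPKM went from 121.7 to 321.5. The most abundant was Fbln1, an elastic fibre and basement membrane glycoprotein, at 43.3 in controls and 95.3 after deletion. Dpt, a dermatopontin that binds decorin and collagen fibrils, rose from 24.7 to 62.8. Tnc, the hexameric glycoprotein tenascin C of wound matrix, rose from 6.61 to 32.9, the second-largest log2 ratio of the list at 2.31. Periostin (Postn), a matricellular protein of fibrotic tissue, rose from 13.6 to 30.9, and thrombospondin 2 (Thbs2) from 3.24 to 8.45. The spondins Spon1 and Spon2 rose from 7.66 to 25.2 and from 7.16 to 22.3.

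The collagen genes in the table were minor ones. Col6a5 rose from 2.28 to 10.7, Col24a1 from 2.13 to 5.99 and Col8a2, a network-forming collagen of basement membranes, from 0.469 to 2.56. The fibrillar collagens Col1a1, Col1a2 and Col3a1, which make up most of a liver scar, have no row. The crosslinking enzyme Lox, which oxidises lysines of collagen and elastin, was the only row of its list and rose from 28.1 to 62.7.

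The 4 proteoglycan rows went in both directions. Lumican (Lum), a small leucine-rich proteoglycan that regulates collagen fibril diameter, rose from 38.1 to 122 and was the most abundant core matrix or proteoglycan row after deletion. The membrane-bound heparan sulphate proteoglycans fell, Sdc3 from 145 to 51.8, Sdc1 from 101 to 44.6 and Gpc1 from 19.1 to 7.67. Sdc1 is also a plasma cell marker.

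Matrix proteases and their inhibitors were listed in 12 rows, of which 5 rose and 7 fell. Mmp2, the gelatinase made by fibroblasts and stellate cells, rose from 19.5 to 82.8, as did Serpinf1, a collagen-binding serpin, from 32.1 to 79.5, and Mmp23, from 12.1 to 30.3. Adamts5 rose from 4.10 to 8.83 and matrilysin (Mmp7), an epithelial protease, from 1.45 to 8.96. The proteases of myeloid cells fell. Macrophage elastase (Mmp12) fell from 551 to 40.3, a log2 ratio of -3.77, and gelatinase B (Mmp9), a product of neutrophils and macrophages, from 20.7 to 7.30. The collagenase Mmp13 fell from 17.5 to 3.79, Mmp27 from 9.48 to 1.31, Adam8 from 265 to 53.6 and the plasminogen activator Plau from 36.2 to 12.7.

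The metalloproteinases Mmp7, Mmp12, Mmp13 and Mmp27 lie together on chromosome 9, and they did not go the same way. Mmp7 and Mmp27 are 110 kb apart in GENCODE vM21 (GRCm38), yet Mmp7 rose while Mmp27 fell, together with Mmp12 and Mmp13, which are 61.0 kb apart. Windows of 300 bases from RefSeq (250 before and 50 after an annotated start, GRCm38.p6, plus strand) are shown for Mmp7 and Mmp12. These 2 genes lie 323 kb apart in this cluster, moved in opposite directions and hold the same 2 strings. Capitals mark GAGGAAGT, a string of the ETS family type bound by the macrophage factor PU.1, and TGACTCA, the AP-1 type, each on the opposite strand.
Mmp7 (chr9:7691840-7692139): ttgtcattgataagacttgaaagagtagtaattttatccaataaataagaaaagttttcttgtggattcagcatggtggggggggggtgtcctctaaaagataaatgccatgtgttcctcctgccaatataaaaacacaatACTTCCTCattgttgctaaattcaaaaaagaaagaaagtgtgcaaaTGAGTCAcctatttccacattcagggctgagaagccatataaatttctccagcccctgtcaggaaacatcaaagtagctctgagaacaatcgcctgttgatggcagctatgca
Mmp12, upstream start (chr9:7344147-7344446): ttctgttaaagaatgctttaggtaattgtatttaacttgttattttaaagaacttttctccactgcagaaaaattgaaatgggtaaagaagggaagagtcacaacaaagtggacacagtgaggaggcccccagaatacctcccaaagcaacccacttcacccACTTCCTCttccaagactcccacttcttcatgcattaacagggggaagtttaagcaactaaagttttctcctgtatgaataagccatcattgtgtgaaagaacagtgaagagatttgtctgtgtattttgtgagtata
Mmp12, downstream start (chr9:7347124-7347423): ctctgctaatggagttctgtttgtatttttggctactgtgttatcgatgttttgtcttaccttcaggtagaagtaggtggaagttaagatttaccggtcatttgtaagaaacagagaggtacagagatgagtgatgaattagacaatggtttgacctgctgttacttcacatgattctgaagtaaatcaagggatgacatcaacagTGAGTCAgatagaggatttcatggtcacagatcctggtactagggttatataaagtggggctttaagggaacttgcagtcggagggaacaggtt
In Mmp7 both strings lie before the start shown, at 109 and 63 bases. The window of a second annotated Mmp7 start (chr9:7692091-7692390, not shown) holds neither string. In Mmp12 they lie before different starts, the first at 88 bases and the second at 44. A match is a string of letters and not a shown binding site.

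Wnt signalling was listed in 8 rows, and all 8 rose, with log2 ratios between 1.24 and 2.03 and a summed FPKM of 77.6 in controls and 227.8 after deletion. Both ligands with a row rose. Wnt5a, the main non-canonical ligand, rose from 8.95 to 35.7, a log2 ratio of 1.99, and Wnt4, a ligand of kidney and gonad development in which WT1 acts, from 9.0 to 22.3. R-spondin 3 (Rspo3), which amplifies Wnt signals at the receptor, had the largest log2 ratio, 2.03, at a low level, 1.12 in controls and 4.58 after deletion. The receptor Fzd1 rose from 12.7 to 33.3. Among secreted antagonists, Sfrp2 rose from 19.2 to 66.5, Dkk3 from 14.9 to 35.2 and Sfrp1 from 8.52 to 21.1, and the intracellular antagonist Nkd1, itself a target of the canonical pathway, rose from 3.24 to 9.09. Ligands and antagonists thus rose side by side.

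Growth factors and their receptors were listed in 8 rows, 6 of which rose. The receptor Pdgfra rose from 18.8 to 43.4, while the ligand Pdgfb, which is made by platelets, macrophages and endothelium, fell from 21.7 to 7.72. The CCN proteins Ctgf and Wisp1 rose from 11.5 to 31.7 and from 1.82 to 5.77. The heparin-binding pair midkine (Mdk) and pleiotrophin (Ptn) rose from 9.28 to 30.6 and from 2.28 to 12.9, and Ptn had the largest log2 ratio of the list, 2.50. Angptl4, a secreted inhibitor of lipoprotein lipase, rose from 30.4 to 89.0. Hgf, the mitogen that stellate cells supply to hepatocytes, fell from 9.45 to 3.35. In the list of TGF-beta and BMP signalling, Gdf15, a stress-induced member of the family, fell from 22.5 to 7.50.

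**Figure D2:**
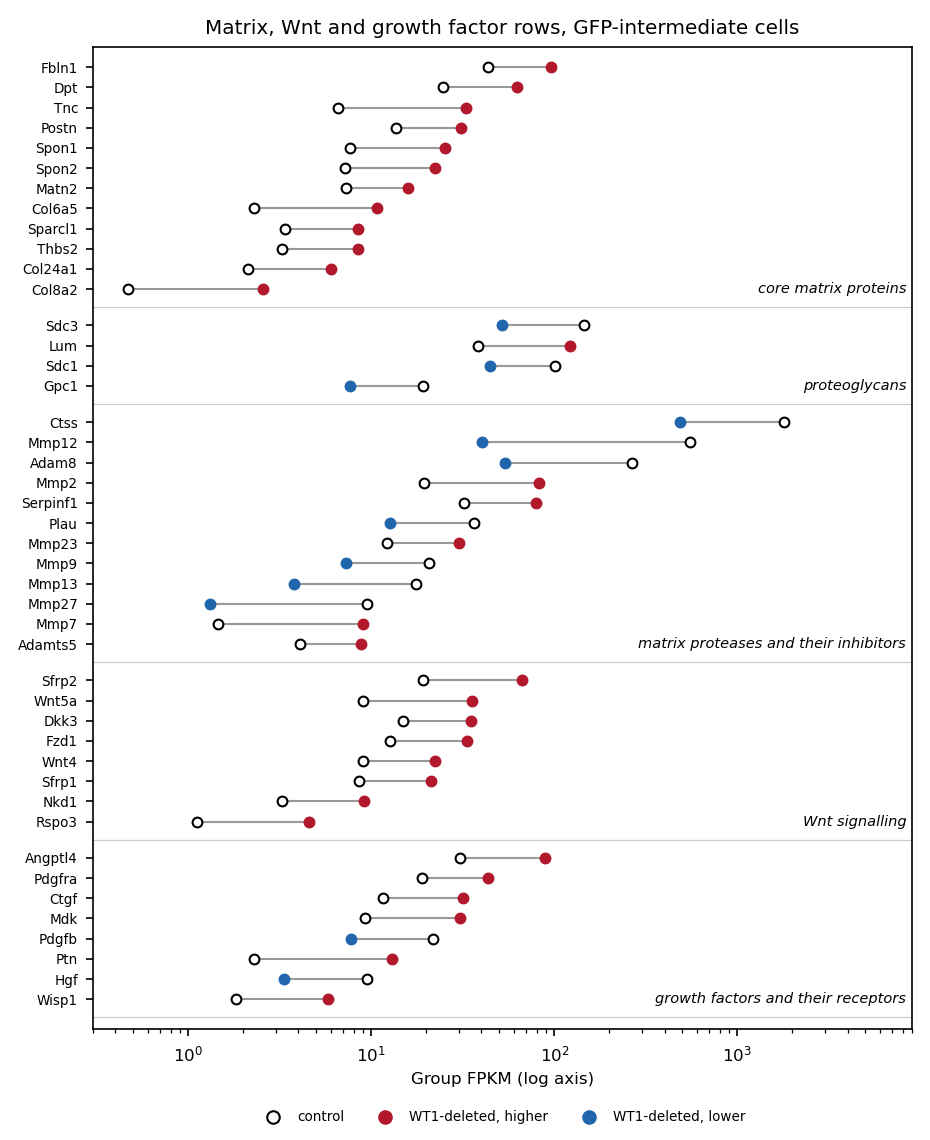
Group FPKM (log axis) of the rows of 5 lists, each joined from control (open circle) to WT1-deleted GFP-intermediate cells (filled circle, red where higher and blue where lower). All 12 core matrix and all 8 Wnt rows move to the right, and the proteases divide into 5 rises and 7 falls.

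Genes of stellate cells, fibroblasts and contractile cells were few and mostly higher. Of 6 rows of quiescent stellate cell genes 5 rose. Cygb, the globin used to mark stellate cells, rose from 39.5 to 96.5, the collectin Colec11 from 2.92 to 10.7 and the pericyte gene Rgs5 from 1.41 to 8.20, and Hgf was the member that fell. All 5 rows of portal fibroblast genes rose, among them Inmt, a methyltransferase, from 1.47 to 8.26 and the long pentraxin Ptx3 from 6.69 to 17.9. The defining markers of both lists have no row. The 3 contractile rows rose, with Mylk (myosin light chain kinase) going from 5.52 to 14.1, Cdh2 (N-cadherin) from 5.02 to 12.1 and Rgs5 as above. The guidance receptor Plxna4 rose from 10.2 to 24. No mesothelial gene of the list was present in the table.

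Macrophage genes had the most rows of any list, 42 from a list of 107 genes. All 42 fell, with log2 ratios between -3.91 and -1.16 and a median of -1.77, beside -1.61 over all falls. Their summed FPKM was 10416 in controls and 2869 after deletion, and none was at 0. The 5 defining markers with a row were C1qa (609 in controls and 121 after deletion), Csf1r (269 and 100.2), Emr1, which encodes F4/80 (131 and 32.8), and the Kupffer cell genes Clec4f (174 and 43.8) and Vsig4 (89.4 and 18.5). The most abundant named row in both groups was the lysosomal protease Ctss, at 1799 and 486. The subunits of the complement initiator C1q, named together as C1qb,C1qc, had 1463 and 284. C1qa and C1qc are 2.85 kb apart on chromosome 4, and the log2 ratios of the 2 rows were -2.34 and -2.36. The Fc receptor gamma chain Fcer1g went from 725 to 325, the inhibitory receptor row Gp49a,Lilrb4 from 428 to 138 and the actin-bundling protein Lcp1 from 345 to 131. Lipoprotein lipase (Lpl) went from 342 to 57.7, the beta-glucan receptor Clec7a from 327 to 116 and the scavenger protein Cd5l from 297 to 79.0. The other 32 rows had log2 ratios between -3.91 and -1.25 with a median of -1.68.

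Genes of resident Kupffer cells and of recruited or lipid-laden macrophages were both among the falls. Of the former, Marco fell from 209 to 72.2 and Folr2 from 71.9 to 12.4. Of the latter, Trem2 fell from 212 to 46.1, Gpnmb from 178 to 39.7, Itgam from 202 to 69.9 and the fractalkine receptor Cx3cr1 from 35.5 to 14.9. In a sorted bulk sample fewer cells of a type and less RNA per cell cannot be told apart. The cells had been gated on RFP and GFP, and no gate against leukocytes is named in the sources used here. The part of macrophages in the sort in any other fall was not tested. As FPKM is divided by the total mapped, their part in the rises was not tested either.

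Ctss is shown as the most abundant fall. Its window (RefSeq, GRCm38.p6, plus strand) holds GAGGAAGT, in capitals, on the opposite strand, beginning 2 bases before the annotated start and running past it.
Ctss (chr3:95526536-95526835): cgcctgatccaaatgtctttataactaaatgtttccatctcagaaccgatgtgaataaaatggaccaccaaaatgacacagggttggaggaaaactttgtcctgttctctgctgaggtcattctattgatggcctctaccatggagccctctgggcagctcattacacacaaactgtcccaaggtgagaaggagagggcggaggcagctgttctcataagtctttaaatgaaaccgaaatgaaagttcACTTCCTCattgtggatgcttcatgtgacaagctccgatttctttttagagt
For comparison, a window of Tnc on the minus strand, the rise named above, holds GCGGGGGCG, a string of the EGR type that WT1 also binds, 171 bases before the start. A second, overlapping window of Tnc, not shown, holds the same string 250 bases before its start.
Tnc (chr4:64046966-64047265): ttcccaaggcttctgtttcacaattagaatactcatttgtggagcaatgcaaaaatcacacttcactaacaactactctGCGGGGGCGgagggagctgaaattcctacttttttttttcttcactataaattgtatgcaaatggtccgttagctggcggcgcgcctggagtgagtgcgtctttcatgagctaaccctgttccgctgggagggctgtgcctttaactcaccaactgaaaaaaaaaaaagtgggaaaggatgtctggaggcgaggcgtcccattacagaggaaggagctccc
Over the RefSeq set of 32851 windows, with both strands searched, GAGGAAGT was found in 3.20%. Of the 444 gene names, 286 matched the set, and the string was in 23 of 262 windows of genes that fell (8.78%) and in 3 of 99 windows of genes that rose (3.03%). TGACTCA was in 5.20% of all windows, in 26 of those of falls (9.92%) and in 4 of those of rises (4.04%). GCGGGGGCG was in 2.91% of all windows, in 7 of those of rises (7.07%) and in 6 of those of falls (2.29%). A longer WT1 string, GCGTGGGAG, was in 0.472% of all windows, in 0 of 99 for rises and in 1 of 262 for falls. These shares are descriptions, since a gene can have several overlapping windows, the strings can overlap one another, and they were picked from 11 counted with the values known.

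Further lists of myeloid function fell as a whole and overlap the macrophage list. Of Fc receptors, C-type lectins and other immune receptors 23 rows were listed and all fell, 16 of them also macrophage genes. The row Cd36,Mir5109, which holds a fatty acid and oxidised lipoprotein receptor, fell from 389 to 57.7, the pattern receptor Clec4d from 185 to 71.2 and the activating receptor Fcgr3 from 136 to 49.98. Lysosome and phagosome genes had 11 rows, all lower, with Ctsh going from 347 to 124, the oxidase subunit Cybb from 266 to 75.5 and the acid lipase Lipa from 254 to 81.1. The vacuolar proton pump subunit Atp6v0d2 fell from 19.6 to 1.30, at -3.91 the second-largest fall among the named rows. Of 8 rows of lipid handling 7 fell, among them Fabp5 from 223 to 78.9, Fabp7 from 65.9 to 14.1 and the cholesterol exporter Abca1 from 46.4 to 19.4, while Enpp2 (autotaxin) rose from 3.78 to 9.34.

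Granulocyte genes were listed in 9 rows, all of which fell, with a summed FPKM of 1109 in controls and 365 after deletion. The calprotectin subunits S100a8 and S100a9, neighbours on chromosome 3 and abundant in neutrophils, fell from 412 to 123 and from 259.8 to 84.5. The neutrophil proteins Retnlg, Ngp and Ltf fell from 39.2 to 8.24, from 13.9 to 3.24 and from 3.56 to 0.672. Irg1 (current symbol Acod1), which makes itaconate, fell from 40.3 to 13.8. The part of granulocytes in the sort in these values was not tested.

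Other blood and vessel cell types had fewer rows. The 4 dendritic cell rows fell, with Cd83 going from 107 to 45.2 and Cd207 (langerin) from 26.9 to 3.71, and none of the defining markers of the list has a row. Of 7 B lymphocyte and plasma cell rows 6 fell, including the receptor adaptor Blnk from 29.8 to 5.82 and Cd22 from 7.21 to 1.33, and the one that rose was Mir155. Gzma, from 9.93 to 3.05, was the only T and NK lymphocyte row. Pf4, platelet factor 4, which is the defining megakaryocyte marker with a row and is also made by macrophages, fell from 209 to 27.5, and the row Clec1b,Clec9a, which holds a platelet and a dendritic cell lectin, from 42.2 to 14.1. Of 5 sinusoidal endothelial rows 4 fell, including the scavenger receptor Stab1 from 120.4 to 30.8 and VE-cadherin (Cdh5) from 17.9 to 8.09, and Rspo3 rose. Stab1 and Mrc1 of this list are also made by macrophages. No defining marker of the B lymphocyte, T and NK lymphocyte or sinusoidal endothelial list has a row.

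Epithelial genes of the bile duct went the other way at low levels. All 3 cholangiocyte rows rose, Cldn4 as given above, Epcam from 1.30 to 5.70 and the transcription factor Sox9, which stellate cells also make when activated, from 1.67 to 4.69, and their summed FPKM was 4.11 in controls and 19.0 after deletion. Car3 was the only hepatocyte row, and none of the 4 defining hepatocyte markers has a row. Pancreatic acinar genes had 13 rows, all listed at 0 in WT1-deleted cells, and their control values lay between 0.431 for Reg3d and 6.23 for Reg2, with a sum of 28.2. The defining markers among them were Pnlip (3.16 in control), Cela3b (2.74) and Cpa1 (2.18).

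**Figure D3:**
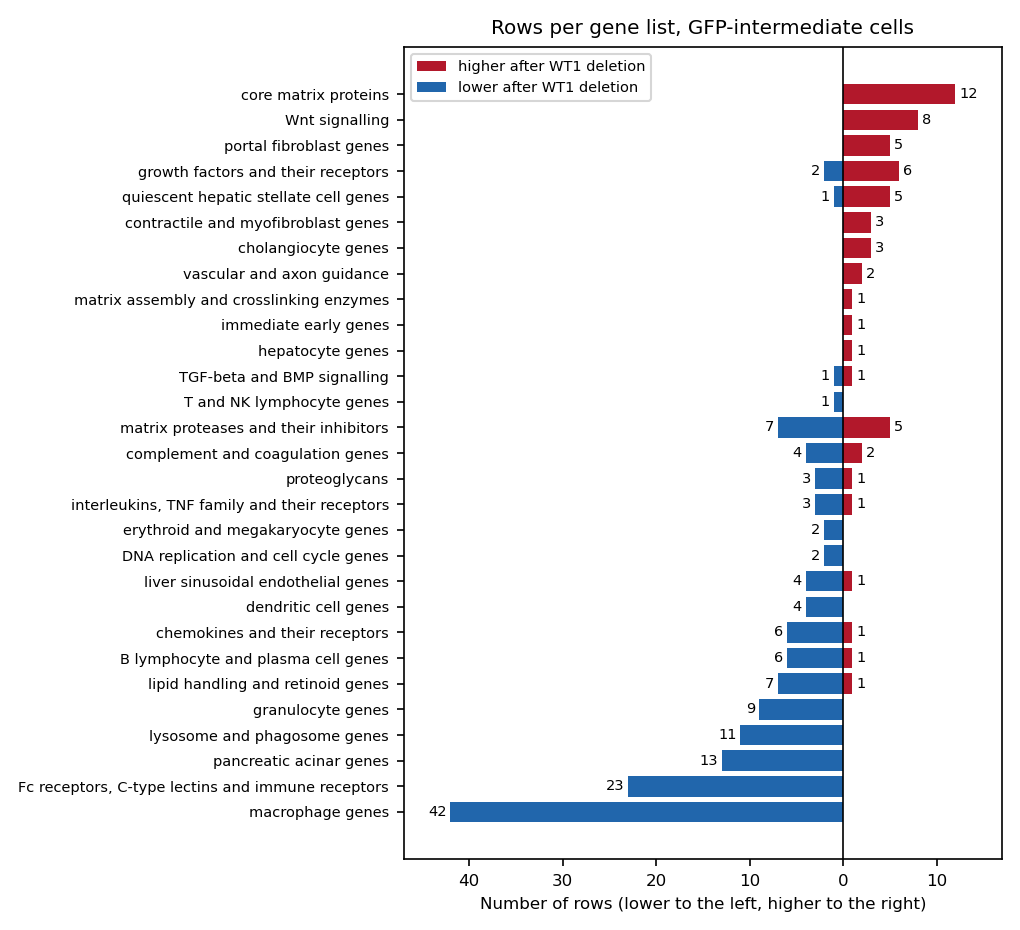
Number of rows that rose (red, to the right) and fell (blue, to the left) after WT1 deletion in each of the 29 gene lists with a row, where a row can be in several lists. The core matrix and Wnt lists lie on the side of the rises, and the myeloid lists, led by 42 macrophage rows, on that of the falls. Proteoglycans and matrix proteases hold rows of both directions, with more falls than rises.

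Secreted signals of inflammation divided in the same table. Cxcl5, a neutrophil-attracting chemokine of epithelium and stroma, rose from 65.9 to 200.1, whereas the other 6 chemokine and chemokine receptor rows fell. Ccl6, a macrophage chemokine, fell from 1199.6 to 434, Ccl3 from 90.1 to 34.7 and Cxcl14 from 71.4 to 19.99. Csf3, the granulocyte colony-stimulating factor, rose from 1.94 to 8.86, while the cytokines Il1a and Tnf fell from 59.0 to 13.3 and from 18.5 to 7.40. Of 6 complement and coagulation rows the terminal component C7 and the regulator Cfi rose, from 6.63 to 21.1 and from 6.98 to 21.1, and the C1q rows, the receptor C3ar1 (62.8 to 15.0) and Plau fell. No gene of the interferon response list has a row. The stress-induced Ier3, the only immediate early row, rose from 187 to 467 and had the highest FPKM of all named rises.

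**Figure D4:**
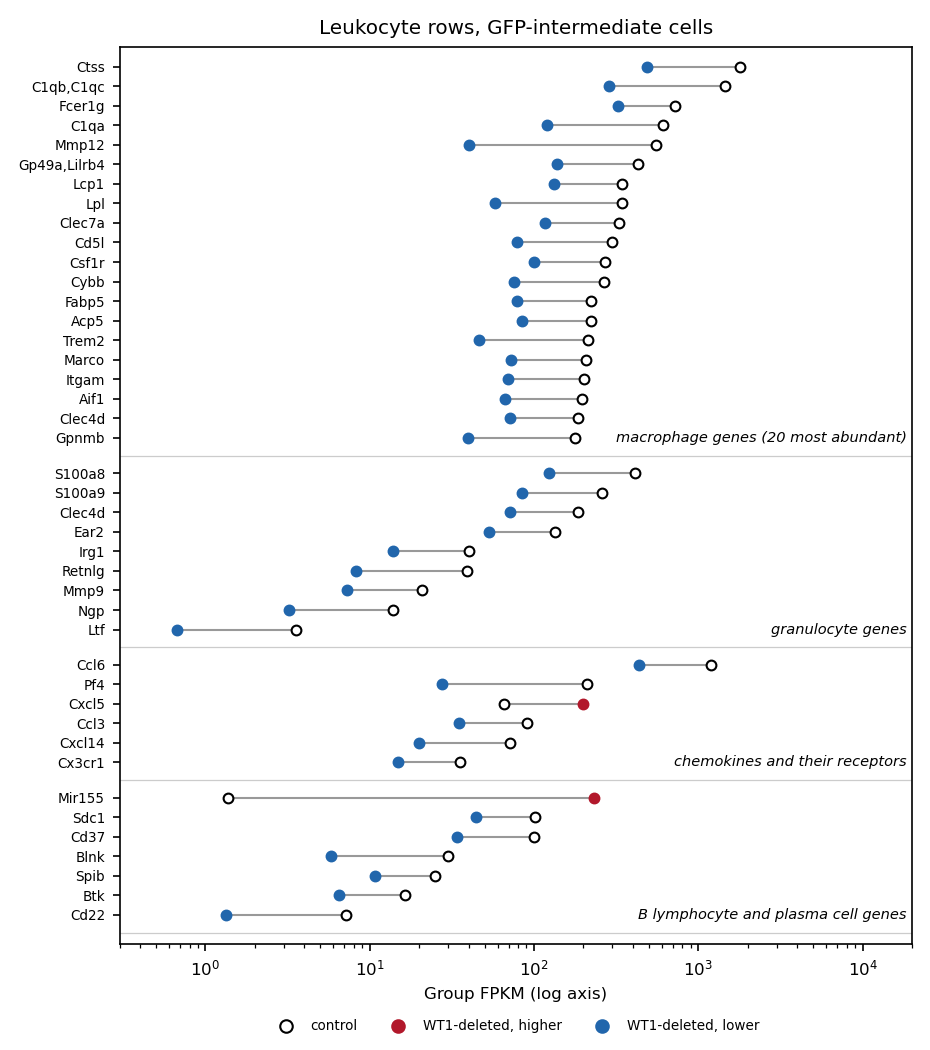
Group FPKM (log axis) of the 20 most abundant macrophage rows and of granulocyte, chemokine and B lymphocyte rows, joined from control (open circle) to WT1-deleted GFP-intermediate cells (filled circle, red where higher and blue where lower). Every macrophage and granulocyte row moves to the left, and Cxcl5 and Mir155 are the 2 rows that move to the right.

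The list of DNA replication and the cell cycle held 115 genes and does not cover every gene of these processes. Its only rows were the replication factors Mcm3 and Mcm5, subunits of the MCM helicase. They fell from 16.9 to 5.84 and from 14.9 to 4.66, and no cyclin, Mki67 or Top2a was listed.

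Besides Atp6v0d2 and Mmp12, the 10 largest falls were of rows in none of the lists. The largest, with a log2 ratio of -4.23, was that of the peptide transporter Slc15a2, from 2.79 to 0.149. The row AL646020.1,Purb, which holds a purine-rich element binding protein, fell from 430 to 29.8, the third-largest fall, at the ninth-highest control level. Apol8 fell from 1.66 to 0.154, the peptidoglycan-binding Pglyrp3 from 8.97 to 0.922 and the carbonyl reductase Cbr2 from 11.9 to 1.29. The row with Trpm2, a calcium channel of myeloid cells, fell from 53.8 to 5.57, AA467197,Mir147 from 137 to 17.1 and the arginine transporter Slc7a2 from 49.2 to 6.23. Among the 10 highest control levels were also Capg, which caps actin filaments (462 and 162), and Rgs1, a regulator of chemokine receptor signalling (434 and 95.1). Cotl1 (395 and 163) was among the 10 highest named rows of the deleted group.

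Of the 419 rows, 259 were in none of the 32 lists, 102 of them rises and 157 falls. The single genes named next were chosen after their values were seen, and no count over a function is drawn from them. Among transcription factors, Cebpd rose from 38.7 to 118 while its relative Cebpa fell from 79.5 to 24.2. Osr1, a factor of embryonic mesenchyme, rose from 4.01 to 14.4 and Creb3l1, a regulator of collagen secretion, from 22 to 48.4. Fli1 and Bhlhe41 fell from 18.7 to 8.15 and from 9.21 to 2.24. Among metabolic genes, Pdk4, a brake on pyruvate oxidation, rose from 9.28 to 30.8 and the thioesterase Acot1 from 4.68 to 13.6, while the fatty acid transporter Slc27a1 fell from 31.3 to 14.7. Among genes of neural adhesion and ion channels, Ncam1 rose from 7.15 to 16.6, the GABA receptor subunit Gabra3 from 9.47 to 26.0 and Dpysl3 from 5.47 to 20.5, while the potassium channel Kcnk13 fell from 10.1 to 2.46 and Rims3, of the presynaptic release zone, from 2.65 to 0.632. Of leukocyte adhesion and motility, the integrin Itgb2 fell from 389 to 137 and Dock2, which activates Rac, from 29.9 to 12.7. Solute carriers, taken by gene symbol over all 419 rows, had 14 rows. Of these 13 fell, beside 62.8% of all rows, and Slc34a2 rose from 0.650 to 2.60. In other symbol families, 4 of 6 Gpr rows, 8 of 16 Gm rows and 10 of 13 RIKEN clone rows fell.

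A group was listed at 0 in 40 rows, 10 in the control and 30 in the deleted group, and for these no fold is given. Rows of 1 gene at 0 in a group were short, with a median of 852 exonic bases against 4197 for the other rows of 1 gene in GENCODE vM21. Of the 12 immunoglobulin and T cell receptor variable segments, each of 348 to 455 exonic bases, 5 were higher and 7 were lower. The highest of those listed at 0 in WT1-deleted cells were Igkv1-88 at 13.2 in control, Ighv3-8 at 10.3, Ighv6-6 at 6.48, Reg2 at 6.23 and Ighv1-66 at 3.85. The highest of those listed at 0 in control were Gm14292, a pseudogene, at 7.19 in WT1-deleted cells, followed by Ighv13-2 at 6.38, Igkv4-69 at 4.36, Ighv5-9 at 3.31 and Gm4737 at 1.40. Variable segments are rearranged in lymphocytes and expressed clonally.

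GFP-high aHSCs of the same experiment gave 123 named rows, 95 of them rises (77.2%) and 28 falls (22.8%). Both fractions were sorted from the same animals, with 1 further deleted animal in the GFP-high group, so that the 2 tables are not independent. They shared 45 rows, 10.7% of the GFP-intermediate and 36.6% of the GFP-high rows. The GFP-high table had 11 core matrix rows, and all 11 rose there. Only Postn, Sparcl1, Dpt, Thbs2, Col6a5 and Col8a2 of the core matrix list were in both tables. Among matrix rows of both tables, Lum had a log2 ratio of 1.67 in both tables, Mmp2 2.09 in GFP-intermediate and 2.44 in GFP-high cells, Dpt 1.35 and 3.33, Postn 1.18 and 2.53 and Col8a2 2.45 and 1.63. The complement component C7 had 1.67 and 4.30. D0H4S114 had a smaller one there, 1.37 against 3.06. The pseudogene Gm11942 had 7.31 and 7.73. Of the 8 Wnt rows Sfrp1 alone was listed in GFP-high cells, at 1.31 and 1.20, and Mir155 was not listed there. The granulocyte genes S100a8 and S100a9 had -1.75 and -1.62 in GFP-intermediate and -1.72 and -1.82 in GFP-high cells.

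Opposite directions were found in 12 of the 45 rows. The row Mir1907,Trps1, which holds a GATA-type repressor, rose from 5.87 to 32.9 in GFP-intermediate and fell from 18.8 to 4.44 in GFP-high cells. The other 11 fell in GFP-intermediate and rose in GFP-high cells, and 4 of them, Atp6v0d2, Gpnmb, Ms4a7 and Fabp5, were the 4 macrophage rows of the GFP-high table. Gpnmb, a lysosomal glycoprotein, went from 178 to 39.7 in GFP-intermediate and from 20.8 to 100.9 in GFP-high cells, and Fabp5 from 223 to 78.9 and from 42.0 to 134. Pf4 went from 209 to 27.5 and from 23.1 to 65.6, the surface peptidase Anpep from 53.5 to 14.9 and from 4.92 to 27.2, and Cd207 from 26.9 to 3.71 and from 5.74 to 19.9. Levels are not compared between the 2 tables, which may have been scaled separately. Whether the effect of deletion differs between the fractions was not tested, because no value per sample was used.

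**Figure D5:**
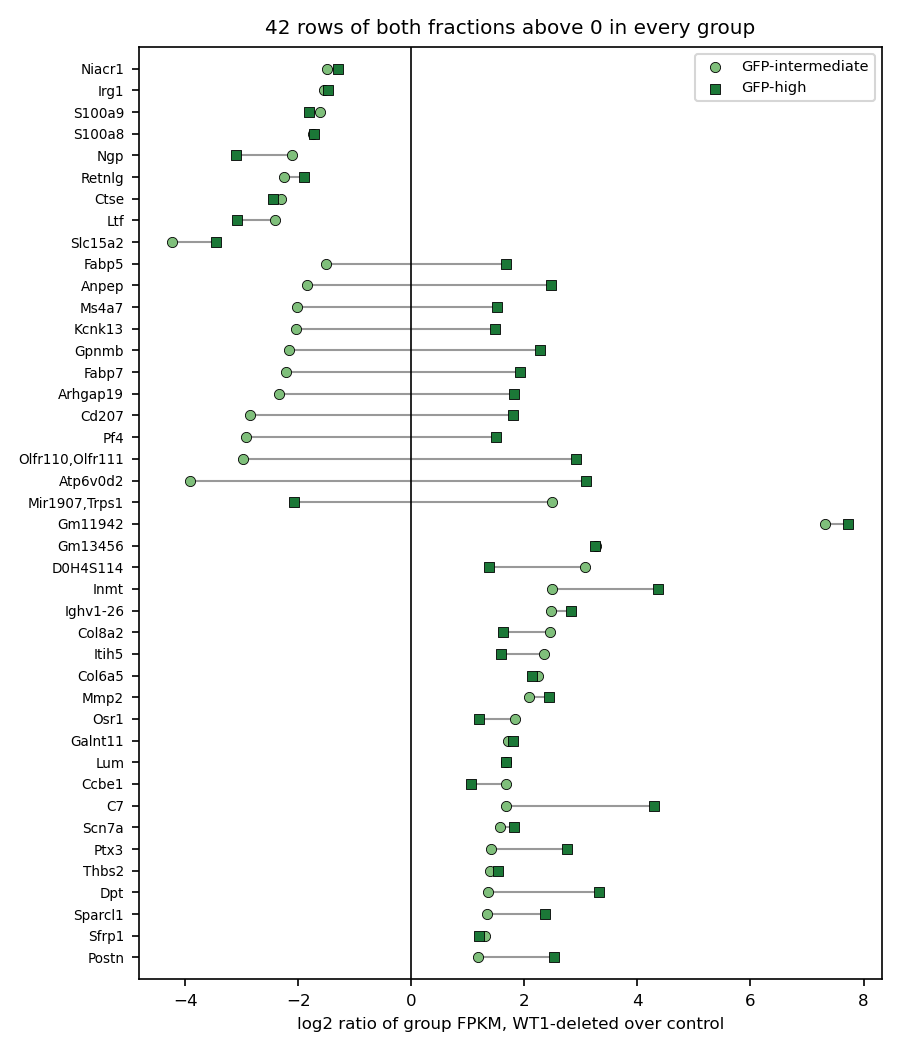
The log2 ratio of group FPKM, WT1-deleted over control, of 42 shared rows that are above 0 in every group, in GFP-intermediate (circles) and GFP-high cells (squares). Both symbols lie on the same side of 0 for most rows, and 11 rows run from a negative value in GFP-intermediate to a positive one in GFP-high cells, with Trps1 the reverse.

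The third table of the study compares quiescent stellate cells of uninjured animals that carry a lineage label of embryonic Wt1 expression with those that do not, and shares no animal with the injury experiment. The authors describe these animals as females with an inducible Cre at the Wt1 locus and the Ai14 reporter. The label was induced by tamoxifen given to the pregnant mother. Sex, genotype and treatment thus differ from those of the injured males. Of its 5716 named rows, 50.4% were higher in label-positive and 49.6% in label-negative cells. Of the GFP-intermediate rows 223 were listed there, 53.2% of them and 3.90% of the quiescent rows. Among the falls, 43 were higher in label-positive and 108 in label-negative quiescent cells, and among the rises 44 and 28. The macrophage list divided, with 11 rows higher in label-positive and 19 in label-negative cells. The Kupffer cell genes Clec4f, Vsig4, Cd5l, Marco and Folr2 were all on the label-positive side, with log2 ratios of 2.28, 2.0, 2.08, 2.75 and 2.15, whereas Itgam, Ctss and Gpnmb were on the label-negative side, with -2.14, -1.38 and -2.04. Of the 6 core matrix rows listed in quiescent cells 5 were higher in label-negative cells, and the 3 Wnt rows (Dkk3, Nkd1 and Rspo3) were higher in label-positive cells. Rows that fell together after WT1 deletion thus lay on different sides in the quiescent table.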

How the data were processed

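The authors sequenced sorted mouse hepatic stellate cells on an Illumina HiSeq, mapped reads with bowtie 2 and used Cuffdiff2 to call genes (adjusted p below 0.05). The submitters' processing notes name TopHat2 2.0.3, Cufflinks 2.0.1, DESeq2 and the builds mm9 and mm10, with no role. The values deposited by the authors are FPKM, 1 per group, and cover called rows only, so samples had been combined. Their columns of fold changes, p-values and q-values were not used. Depth is unknown and intervals could not be given. Samples were grouped by the labels. For all named rows the log2 of the ratio of group values was taken, with no pseudocount added. Rows were assigned to every list with a gene they name. Named were the 10 largest rises and falls among rows above 0 in both groups with an FPKM of at least 1, the 10 highest levels of each group, the 5 highest rows at 0 in the other group, list members (the 10 most abundant) and rows shared with GFP-high cells. Other genes and the motifs were chosen after values were seen. Members and lists were chosen with earlier results of these data known. Chromosomes, lengths and 436 of 444 gene names came from GENCODE vM21. The calculation was tested on simulated data. Python 3.11.15, pandas 2.3.3, numpy 2.4.6 and matplotlib 3.10.9 were used. Alternatives were level and size filters, pseudocounts of 1 and 0.1, and other ways to count rows. Some genes are not reported here by name or value.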

Additional observations from a re-analysis of the deposited data

Results flagged for a closer look

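The GFP-intermediate table also holds 149 rows without a gene name, given by position alone, which enter no comparison above. Of these, 30 were higher and 119 lower after WT1 deletion, and a group was listed at 0 in most of them, control in 29 and WT1-deleted cells in 116. The highest had an FPKM of 919 in WT1-deleted cells, was listed at 0 in control, and spans 111 bases, and the same row had 694 and 0 in GFP-high cells. The highest on the side of the falls had 68.8 in control and was listed at 0 in WT1-deleted cells. They drew attention as data outside the main measurement. Positions are not given, because the genome build of the rows is not given in the sources used here.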

How the results depend on the processing

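No paired analysis was possible because the deposited values combine the samples of a group, and for the same reason no replicate could be left out and no p-value was computed. No other scaling was tried, since the table holds only genes selected for a difference. The counts of rises, falls, list members and shared rows stayed within 1.5 times under the level filter at 1, the size filter and the other ways to count rows. Keeping rows that reach an FPKM of 10 in either group, a filter chosen after seeing the data, left 95 rises and 187 falls. The median log2 ratio of the rises was 1.54, and became 1.27 with a pseudocount of 1, 1.56 with 0.1 and 1.54 with a minimum FPKM of 1. That of the falls was -1.61, and became -1.47 with a pseudocount of 1 and -1.66 with 0.1. Adding the rows without a gene name gave 186 rises and 382 falls. Of 192 counts over single lists 191 stayed within 1.5 times. The exception was the erythroid and megakaryocyte list, with 1 fall in place of 2 when rows that name several genes were left out. No list changed the direction of most of its rows. With 1 combined value per group, a difference carried by 1 library cannot be told from one carried by both.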
